A study of Mus musculus with 56 samples.

Results

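The genes described here are Gad1, Gad2, Slc32a1, Lhx6, Sox6, Erbb4, Pvalb and Syt2. They were chosen by name as genes of GABA synthesis and of parvalbumin interneurons, and they are 8 of the 18088 genes in the deposited table. All 8 passed the filter on low values (a value of at least 10 in at least 4 libraries), as did 17778 genes in all. RNA was sequenced from the prefrontal cortex of 56 C57BL/6J mice on postnatal day 25. The mice were either heterozygous for Scn2a, a neuronal sodium channel gene (HT, 29 mice), or wild type (WT, 27 mice). Every pup had been exposed through its mother's milk from day 3 to day 24 to fluoxetine, a serotonin reuptake inhibitor, to lithium, a mood stabiliser, or to vehicle. Each of the 6 sets of genotype and treatment held 9 or 10 libraries, 4 or 5 of each sex. The labels do not describe the Scn2a allele further, the drug doses or the litters. Where pups of a group shared a dam, p-values over pups are too small for the drug effects, and may be too small or too large for genotype effects.

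GABA is the main inhibitory transmitter of the cortex. It is made from glutamate by glutamate decarboxylase, which Gad1 and Gad2 encode, and is loaded into synaptic vesicles by the transporter that Slc32a1 encodes. All cortical interneurons use these genes. Parvalbumin interneurons are the fast-spiking class: they fire at high rates, inhibit pyramidal cells at the soma or axon, and mature during the weeks after birth. The transcription factors Lhx6 and Sox6 specify them and the related somatostatin cells. Erbb4, a receptor for neuregulins, is enriched on the parvalbumin class, Pvalb encodes its calcium buffer, and Syt2 encodes the calcium sensor that triggers fast transmitter release from its terminals. Striatal projection neurons and olfactory bulb interneurons also make GABA, so Gad1, Gad2 and Slc32a1 are not restricted to cortex.

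The sequences just upstream of an annotated start are shown for 4 of the genes: Syt2, the only member whose change passed the test, Pvalb, whose level varied with that of Syt2 between libraries, and Gad1 and Gad2, which also varied together. They are from RefSeq on GRCm38.p6, run 5′ to 3′ on the gene's strand, and end before the first base of any GENCODE exon. All 8 genes had an entry in the promoter table. Capitals mark matches, on either strand, to 4 motifs that were searched: TAATTA, a core bound by homeodomain factors, TATAAA, the box bound by TBP, GGGCGG, bound by SP factors, and TGACG, the core of a cyclic AMP response element. Over the 250 bases before each of 32851 RefSeq starts, 4.84% of windows held TAATTA, 12.4% TATAAA, 32.7% GGGCGG and 17.8% TGACG.
Syt2: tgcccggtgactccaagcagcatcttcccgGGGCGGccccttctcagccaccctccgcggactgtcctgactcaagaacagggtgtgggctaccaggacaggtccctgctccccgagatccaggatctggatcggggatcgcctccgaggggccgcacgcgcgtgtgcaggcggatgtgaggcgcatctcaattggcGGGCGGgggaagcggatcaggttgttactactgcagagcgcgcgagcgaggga
Pvalb: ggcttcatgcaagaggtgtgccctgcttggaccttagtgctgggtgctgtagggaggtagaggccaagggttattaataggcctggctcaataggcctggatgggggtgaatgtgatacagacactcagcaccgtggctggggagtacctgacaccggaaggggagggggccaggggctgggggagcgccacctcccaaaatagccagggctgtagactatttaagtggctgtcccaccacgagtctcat
Gad1: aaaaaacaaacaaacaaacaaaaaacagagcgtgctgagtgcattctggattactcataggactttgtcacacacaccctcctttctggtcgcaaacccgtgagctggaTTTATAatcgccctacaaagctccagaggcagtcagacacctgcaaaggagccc
Gad2: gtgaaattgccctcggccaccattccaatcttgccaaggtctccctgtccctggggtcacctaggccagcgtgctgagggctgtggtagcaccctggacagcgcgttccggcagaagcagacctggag
The Syt2 window, chr1:134709050-134709299 on the plus strand, precedes a start inside the gene and held 2 matches to GGGCGG. The window before another Syt2 start, chr1:134646362-134646611, whose letters are not printed, held 3 matches to GGGCGG and 1 to TGACG over its 250 bases. None of these lay wholly within its first 87 bases, those before any annotated exon. The Pvalb window, chr15:78206401-78206650 on the minus strand, held no match to any of the 4 motifs. The Gad1 window, chr2:70561879-70562041 on the plus strand, likewise lies within the gene as GENCODE draws it and held 1 match to TATAAA, on the other strand, in the bases printed. The Gad2 window, chr2:22622077-22622204 on the plus strand, had no match in the bases printed. Over the full 250 bases before each start, which include exon bases, Gad1 had 1 match to TATAAA and 1 to GGGCGG. Gad2 had 1 match to TGACG over that length. The shares of windows given above are for the full length. A match describes letters and is not a measured binding site.

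The depth was 24.3 to 36.4 M reads per library, and a value is a gene's read count divided by a size factor for the library. Scn2a was 7583 to 9619 in HT and 9727 to 13381 in WT libraries, without overlap, which matched the genotype labels. The 7 markers of excitatory cortical neurons were above 0 in every library, with a summed value of 141057 to 182985. Markers of neighbouring regions varied widely between libraries of a group. For each library a striatal score and an olfactory score were taken as the mean over 12 markers each of log2(value + 1), minus the gene's median over libraries. The striatal score ran from -0.31 to 2.15 and the olfactory score from -1.73 to 2.22, and 17 libraries had a score above 1. The markers' summed value was 6911 to 28649.8 for the striatum, none at 0 in any library, and 3623 to 21291 for the olfactory bulb and neuroblasts, where only Eomes was at 0 in some libraries. The 17 libraries came from all 6 sets of genotype and treatment, but unevenly. More of them were HT than WT, and WT vehicle mice had the fewest. Results without them are given for the calls of members, for many of the members' correlations and for some lists. For most of the other single genes named below they are not given. A change in such whole tissue cannot tell fewer cells of a type from less RNA in each cell.

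Of the 8 genes, 1 changed past the threshold in any comparison: Syt2 rose with lithium in WT mice, and in lithium-treated mice averaged over the genotypes. The test was limma on log2(value + 1), and a change was called where its p, adjusted over all genes tested by the Benjamini-Hochberg method, was below 0.05. Lithium called 5.71% of all tested genes in WT mice, 8.77% in HT mice and 16.2% averaged over genotypes, against 1 of 8, 0 of 8 and 1 of 8 members. Fluoxetine called 0 of 8 members in WT, in HT and averaged, where the shares of all genes were 0.146%, 0.045% and 0.928%. The genotype called none of the 8 under vehicle, fluoxetine or lithium or averaged over treatments, where 0.00562%, 0.0112%, 0.0337% and 0.152% of all genes were called. Both genotype by drug interactions called 0% of all genes, although 967 genes for fluoxetine and 1934 for lithium had an unadjusted p under 0.05. Sex called 0 of 8 members and 0.197% of all genes, and the differences of the drug effects between the sexes called 0% of all genes (1514 genes with an unadjusted p under 0.05 for fluoxetine and 1273 for lithium).

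**Figure D1:**
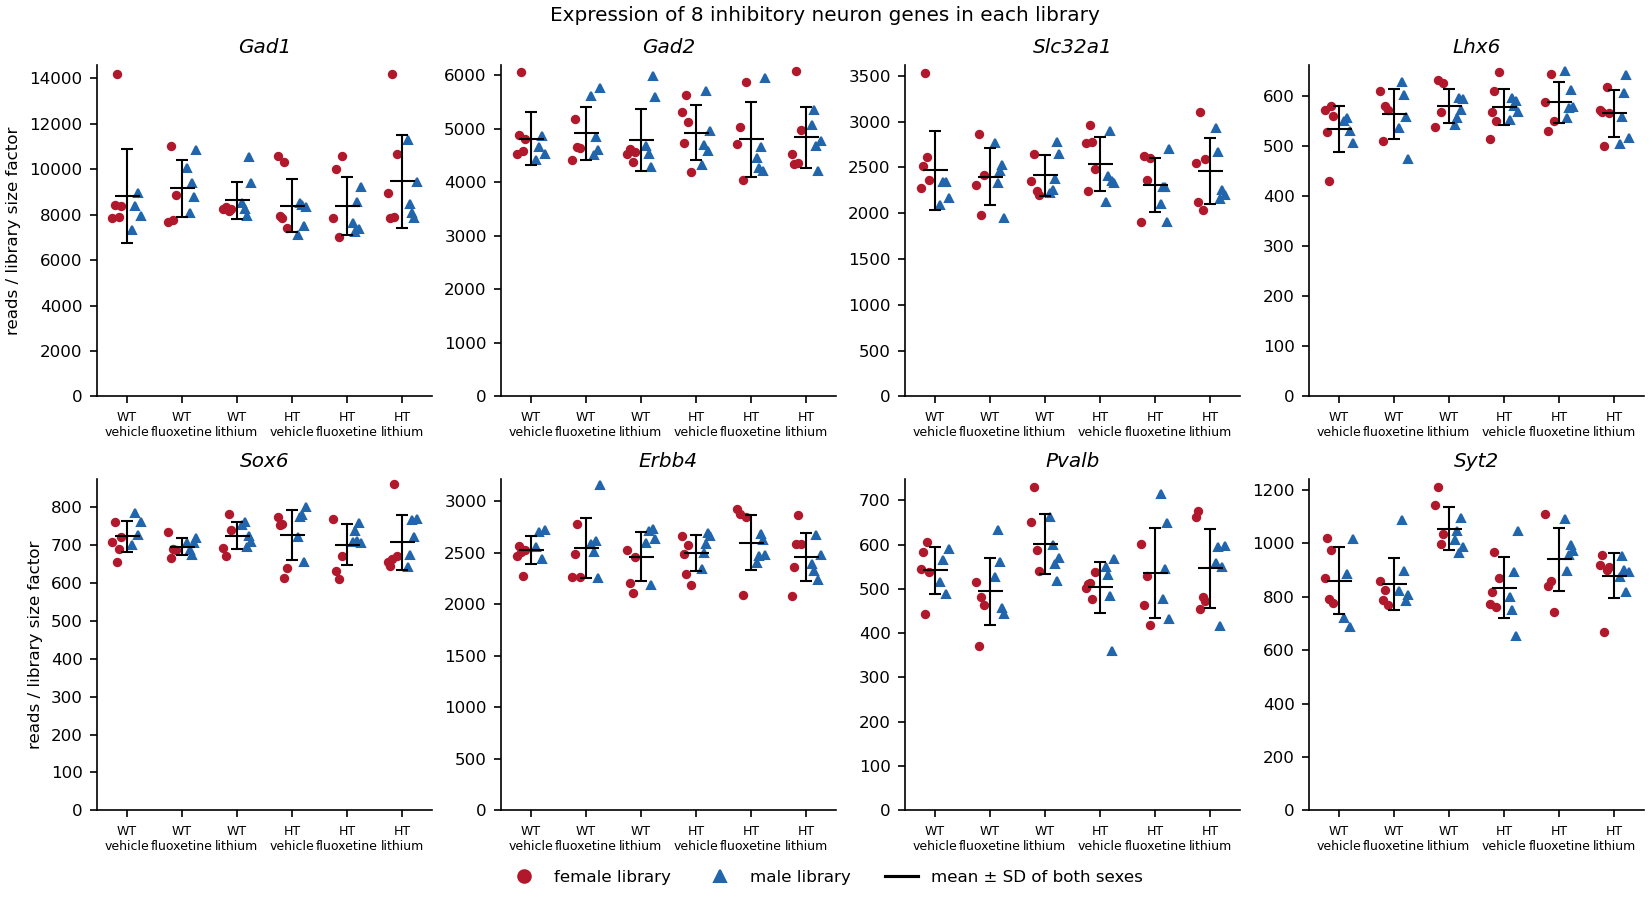
Expression of each of the 8 genes (y axis, size-factor-scaled reads, from 0) in the 6 sets of genotype and treatment (x axis). Circles are female and triangles male libraries, and bars are the mean ± SD of both sexes. Syt2 in WT lithium mice, at 964 to 1213, is the set that stands highest for that gene, and single libraries reach 14206 for Gad1.

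Per kilobase of exon (the union of a gene's annotated exons), Gad1 had the highest level of the 8 genes, 1154 ± 197 (SD over all 56 libraries). Slc32a1 at 869.5 ± 114 and Gad2 at 825 ± 91.6 followed, and these neighbours lay within an SD of each other. Pvalb stood at 516 ± 76.9 and Erbb4 at 204 ± 18.1 on the same scale. Lhx6 at 118 ± 9.18 and Syt2 at 118 ± 16.4 could not be ordered, and Sox6 was lowest at 48.1 ± 3.47. The genes with the widest relative spread over all libraries were Gad1, with a coefficient of variation of 17.1%, and Pvalb, with 14.9%. Sox6 and Lhx6 were the steadiest, with 7.21% and 7.77%.

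Gad1 (ENSMUSG00000070880, GRCm38 chromosome 2, 70553072 to 70602014, plus strand) encodes the decarboxylase isoform that supplies most GABA in the cell. In WT mice its lowest, median and highest values were 7340.2, 8370 and 14206 under vehicle, 7668, 8865 and 11013 under fluoxetine, and 7948, 8269.8 and 10532 under lithium. In HT mice they were 7097, 8146 and 10602 under vehicle, 7019, 7849 and 10569.6 under fluoxetine, and 7838, 8713 and 14173 under lithium. The 6 sets overlapped throughout, with at least 1 library far above its set's median in each. The log2 change with lithium was -0.01 ± 0.11 (SE) in WT (adjusted p = 0.98) and 0.16 ± 0.10 in HT mice (adjusted p = 0.35, with 7 of 10 libraries above the vehicle mean of their own sex). Averaged over genotypes it was 0.07 ± 0.07 (adjusted p = 0.53). With the striatal and olfactory scores as covariates the lithium value was 0.14 in HT mice (adjusted p = 0.011) and 0.14 averaged over genotypes (adjusted p = 0.00058). Without the 17 libraries with a score above 1 these were 0.10 and 0.06, with adjusted p = 0.35 for both. The averaged changes with fluoxetine (0.04 ± 0.07, adjusted p = 0.88) and genotype (-0.01 ± 0.06, adjusted p = 0.98) did not pass.

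Gad2 (ENSMUSG00000026787, chromosome 2, 22622205 to 22693874, plus strand) encodes the isoform found mainly at synaptic terminals. Its values ran from 4044 to 6086 over the 56 libraries, with medians of 4559.8 to 4845 in the 6 sets. The medians differed by less than the range within any set. The averaged log2 changes were 0.01 ± 0.04 for genotype (adjusted p = 0.99), -0.00 ± 0.05 for fluoxetine (adjusted p = 0.98) and -0.02 ± 0.05 for lithium (adjusted p = 0.85). Their 95% intervals reached from -0.12 at the lowest to 0.10 at the highest.

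Slc32a1 (ENSMUSG00000037771, chromosome 2, 158610767 to 158615748, plus strand) encodes the vesicular GABA transporter. It ran from 1903 to 3532, with medians of 2285 to 2443 in the 6 sets, and the sets overlapped. Its averaged log2 changes were 0.01 ± 0.05 for genotype (adjusted p = 0.99), -0.08 ± 0.06 for fluoxetine (adjusted p = 0.61) and -0.03 ± 0.06 for lithium (adjusted p = 0.79). The 3 genes that make and load GABA passed the test in no comparison, apart from Gad1 with the scores as covariates.

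Lhx6 (ENSMUSG00000026890, chromosome 2, 36081953 to 36105408, minus strand) encodes a LIM homeodomain factor that interneurons from the medial ganglionic eminence keep into adulthood. Its lowest, median and highest values in WT mice were 429.7, 549 and 579 under vehicle, 474, 572 and 628 under fluoxetine, and 538, 571 and 632 under lithium. In HT mice they were 514, 574 and 647 under vehicle, 530.4, 577 and 649.9 under fluoxetine, and 500.1, 567 and 641 under lithium. WT vehicle mice had the lowest median, and every set overlapped the others. Lithium gave a log2 change of 0.12 ± 0.05 in WT mice (adjusted p = 0.17, 9 of 9 libraries above the vehicle mean of their sex) and -0.03 ± 0.05 in HT mice (adjusted p = 0.75). The difference between the genotypes in this change was -0.16 ± 0.08 (unadjusted p = 0.043, adjusted p = 0.45). HT mice under vehicle differed from WT by 0.11 ± 0.05 (adjusted p = 0.46, 9 of 10 above). None of these passed after adjustment over all genes. The WT vehicle library at 429.7 had an olfactory score of 2.22. The median of that score was -0.57 in WT lithium, 0.02 in WT vehicle and 0.28 in HT vehicle libraries. Between libraries of a group Lhx6 fell with the score, as given below, and the part of the score in these changes was not tested.

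Sox6 (ENSMUSG00000051910, chromosome 7, 115470872 to 116038796, minus strand) encodes a factor that acts after Lhx6 in the positioning and maturation of the same cells. It is also made by oligodendrocyte precursors. Its values ran from 612 to 862, with medians of 672 to 754 in the 6 sets. The averaged log2 changes were -0.01 ± 0.03 for genotype (adjusted p = 0.96), -0.06 ± 0.03 for fluoxetine (adjusted p = 0.47) and -0.02 ± 0.03 for lithium (adjusted p = 0.74). Females differed from males by -0.05 ± 0.03 (unadjusted p = 0.059, adjusted p = 0.81).

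Erbb4 (ENSMUSG00000062209, chromosome 1, 68032186 to 69108059, minus strand) is the receptor of the group. It ran from 2077 to 3162, with medians of 2438 to 2625. Its averaged log2 changes were 0.01 ± 0.03 for genotype (adjusted p = 0.99), 0.03 ± 0.04 for fluoxetine (adjusted p = 0.84) and -0.04 ± 0.04 for lithium (adjusted p = 0.56). The 95% intervals of these 3 changes lay between -0.12 and 0.11.

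Pvalb (ENSMUSG00000005716, chromosome 15, 78191114 to 78206400, minus strand) encodes parvalbumin, the calcium buffer that names the class. In WT mice its lowest, median and highest values were 444, 545 and 606 under vehicle, 371, 481 and 633 under fluoxetine, and 519, 588.5 and 729.5 under lithium. In HT mice they were 360.3, 513 and 567 under vehicle, 418, 530.2 and 715 under fluoxetine, and 416, 553 and 676 under lithium. WT lithium mice had the highest median, and this set overlapped each of the others. The log2 change with lithium was 0.16 ± 0.10 in WT (adjusted p = 0.36, 8 of 9 libraries above) and 0.11 ± 0.09 in HT mice (adjusted p = 0.50, 6 of 10 above). Averaged over genotypes it was 0.13 ± 0.07 (unadjusted p = 0.051, adjusted p = 0.17), with a 95% interval from -0.00 to 0.27. Fluoxetine gave -0.15 ± 0.10 in WT (adjusted p = 0.60) and 0.07 ± 0.09 in HT mice (adjusted p = 0.87). HT mice under vehicle differed from WT by -0.11 ± 0.09 (adjusted p = 0.75). The 95% intervals of the lithium change reached from -2.59% to 27.5% in WT and from -4.95% to 22.5% in HT mice.

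Syt2 (ENSMUSG00000026452, chromosome 1, 134646677 to 134762593, plus strand) is the member that changed. Under vehicle, WT females had values of 870.2, 1019, 790.5, 976 and 776, and WT males 719, 887, 689 and 1017. Under lithium, WT females had 1143, 1213, 999 and 1035, and WT males 1014, 1047, 964, 1096 and 987. All 9 lithium-treated WT libraries stood above the vehicle mean of their own sex, although 3 of the 9 vehicle libraries reached the range of the lithium ones. The rise was 0.32 ± 0.08 on the log2 scale (SE), or 24.5% (95% interval 11.5% to 39.1%, adjusted p = 0.014). Leaving out each library in turn gave 0.28 to 0.37, with an adjusted p of 0.0089 to 0.045. Without the 17 libraries with a score above 1 the value was 0.29 and no longer passed (adjusted p = 0.065). With the scores as covariates it was 0.24 (adjusted p = 0.035). The olfactory score was low in WT lithium libraries, with a median of -0.57 (range -0.84 to 0.87) against 0.02 (-0.83 to 2.22) in WT vehicle libraries, and all 12 olfactory markers were lower with lithium in WT mice (median log2 change -0.58, none called). The striatal score had a median of 0.07 (-0.24 to 1.63) in WT lithium and -0.18 (-0.31 to 0.97) in WT vehicle libraries, and all 12 striatal markers were higher with lithium (median 0.26, none called). The part of either score in the rise was not tested beyond these refits.

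In HT mice the lithium change of Syt2 was smaller and did not pass. HT females had 775, 817, 969, 762 and 870.3 under vehicle and 919.6, 958, 669, 899.5 and 913 under lithium. HT males had 799, 752, 895, 653 and 1046 under vehicle and 874, 954, 900.0, 817 and 895 under lithium. Values were above the vehicle mean in 8 of 10 lithium libraries, with wide overlap. The log2 change was 0.08 ± 0.07 (adjusted p = 0.55), with a 95% interval from -0.07 to 0.23. The difference between HT and WT in the lithium change was -0.23 ± 0.11 (unadjusted p = 0.038, adjusted p = 0.44), so the rise was not shown to differ between genotypes. Under lithium HT libraries were lower than WT by 0.27 ± 0.08 on the log2 scale, with 10 of 10 below the WT mean of their sex, and this did not pass after adjustment (adjusted p = 0.27). Averaged over genotypes, lithium raised Syt2 by 0.20 ± 0.05 or 14.8% (adjusted p = 0.0085, 17 of 19 libraries above). That value was 0.21 without the 17 libraries (adjusted p = 0.048).

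Fluoxetine did not change Syt2 past the test. WT females had 860.4, 788, 826 and 769.5 under fluoxetine, and WT males 822, 1087, 895, 785 and 806. HT females had 1109.9, 841, 860.1 and 743, and HT males 1092, 896, 957, 994 and 972. The WT values lay within the vehicle range but for the male at 1087, and 2 HT values, 1109.9 and 1092, lay above the HT vehicle range. The log2 change was -0.01 ± 0.08 in WT (adjusted p = 0.97) and 0.17 ± 0.08 in HT mice (adjusted p = 0.57, 8 of 9 above), and the difference between the genotypes was 0.18 ± 0.11 (adjusted p = 0.95). Under vehicle the genotypes differed by -0.04 ± 0.08 (adjusted p = 0.92).

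**Figure D2:**
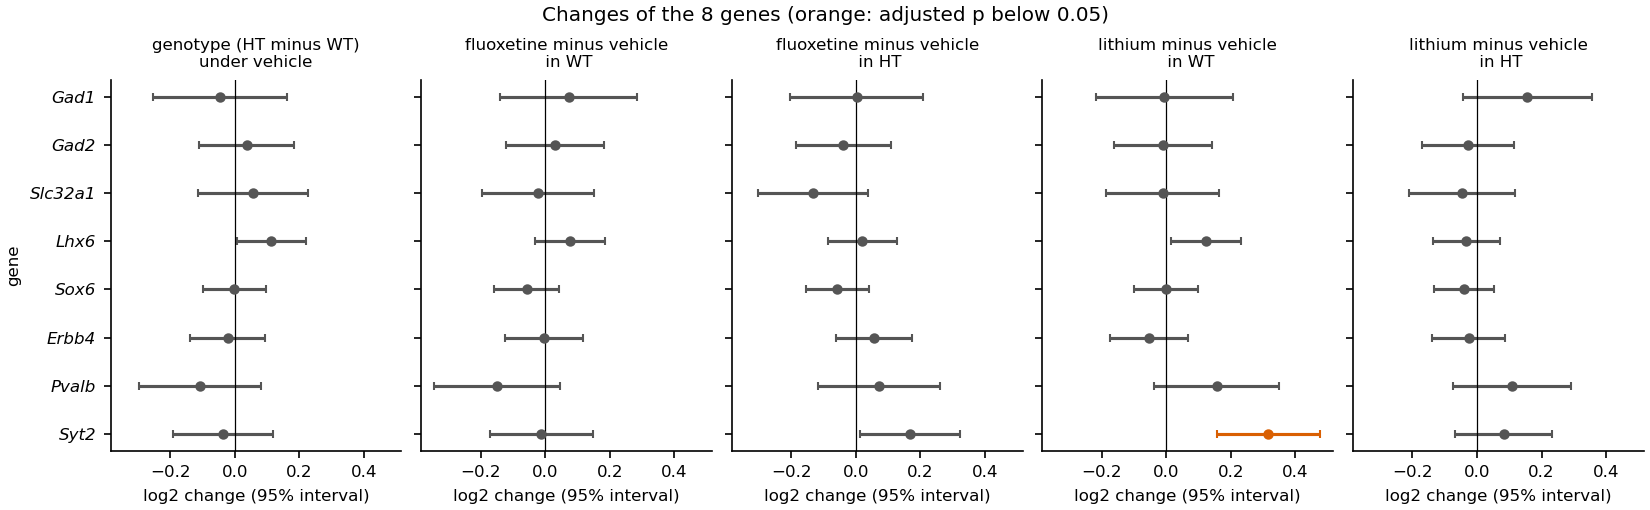
Log2 change (x axis, with its 95% interval) of each of the 8 genes (y axis) for the genotype under vehicle and for each drug in each genotype, from limma. Orange marks an adjusted p below 0.05, which only Syt2 with lithium in WT mice reached, at 0.32.

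Other genes of the fast-spiking phenotype were higher with lithium more often than lower. Of 19 such genes, 18 were higher in WT (median log2 change 0.10, against 0.00 over all genes) and 13 in HT mice (median 0.11, against -0.00). In WT mice 6 rose and none fell past the test, and in HT mice 7 rose and none fell, beside 5.71% and 8.77% of all genes called. Nefh, the heavy neurofilament of large axons, rose by 0.29 ± 0.05 in WT (adjusted p = 0.0002) and 0.19 ± 0.04 in HT mice (adjusted p = 0.0052). Kcna1, an axonal potassium channel, rose by 0.28 ± 0.06 in WT (adjusted p = 0.0044) and 0.21 ± 0.06 in HT mice (adjusted p = 0.013). Cplx1, a complexin that clamps vesicle fusion, rose by 0.17 ± 0.03 (adjusted p = 0.001) and 0.10 ± 0.03 (adjusted p = 0.032). Cortical pyramidal cells make several of these genes too. In the same WT comparison 12 of 12 striatal markers were higher, and 12 of 12 olfactory and 5 of 5 microglial markers (median -0.11) were lower, none of them called, while 6 of 7 excitatory neuron markers were higher (median 0.07) and Tbr1 was called. In HT mice 3 of 12 striatal (median -0.10) and 8 of 12 olfactory markers (median 0.03) were higher. There 5 of 5 microglial markers were lower (median -0.08), with P2ry12 called. Of 7 excitatory neuron markers 3 were higher and 4 lower in HT mice (median -0.03, none called). The part of these cell types in the list's change was not tested. Without the 17 libraries with a high score, 5 genes of the list rose in WT and 2 in HT mice, when 2.87% and 3.35% of all genes were called. Fluoxetine in WT, in HT and averaged, and the genotype averaged over treatments, called 0 of 19. Of all genes these comparisons called 0.146%, 0.045%, 0.928% and 0.152%. For the genotype 17 of the 19 were lower in HT mice, with a median of -0.03. Over all genes the median was 0.00, and 50.2% were higher in HT mice. The smallest p for fluoxetine averaged over genotypes was that of Nefh (0.11 ± 0.03, adjusted p = 0.10), and for the genotype that of Scn1a, the main sodium channel gene of these interneurons (-0.09 ± 0.03, adjusted p = 0.31).

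**Figure D3:**
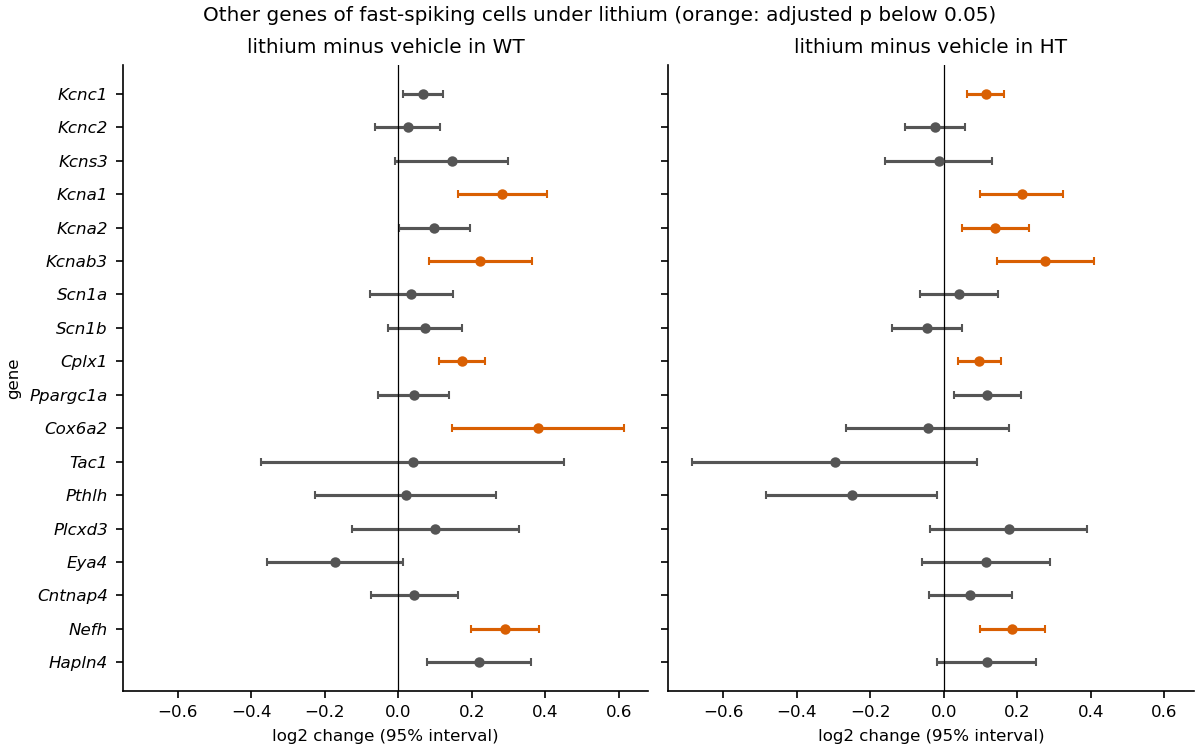
Log2 change with lithium (x axis, with its 95% interval) of 18 of the 19 other genes of fast-spiking cells (y axis) in WT (left) and HT mice (right). Orange marks an adjusted p below 0.05: 5 of the genes shown in WT and 6 in HT mice, all higher with lithium.

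Genes listed under GABA metabolism and transport, some of which have other roles, moved both ways. Of 18, lithium raised Zdhhc17, a palmitoyl transferase, and lowered Slc6a13, a GABA transporter found largely in the meninges, in WT mice. Both of these WT calls were lost with voom and with edgeR. In HT mice it raised Slc38a2 and lowered Slc38a5, both glutamine transporters. These were 2 of 18 in each genotype, beside 5.71% of all genes in WT and 8.77% in HT mice. Averaged over genotypes 5 rose and 3 fell (16.2% of all genes were called), and the smallest p-values were those of Slc38a2 (0.19 ± 0.03, adjusted p = 9.5e-05), Zdhhc17 (0.07 ± 0.02, adjusted p = 0.002), Slc38a5 (-0.39 ± 0.10, adjusted p = 0.0044) and Slc6a13 (-0.28 ± 0.08, adjusted p = 0.014). With voom or edgeR the averaged counts were 2 higher and 3 lower. Endothelial cells make Slc38a5, and the 4 endothelial markers did not move together in HT mice with lithium. Cldn5 (-0.49), Pecam1 (-0.20) and Slco1c1 (-0.20) fell while Flt1 (0.19) rose. The markers' summed value was 4497 to 5826 in HT lithium and 4926 to 6632 in HT vehicle libraries, and their part in the Slc38a5 change was not tested.

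Among 14 other calcium-binding protein genes, 11 were lower with lithium in HT mice of which 6 fell past the test, and none rose past it, where 8.77% of all genes were called. Hpca, which encodes the neuronal calcium sensor hippocalcin, fell by 0.25 ± 0.05 on the log2 scale (adjusted p = 0.0012), and Ncald, a related sensor, fell by 0.17 ± 0.05 (adjusted p = 0.021). S100b, made by astrocytes, fell by 0.14 ± 0.04 (adjusted p = 0.023). Without the 17 libraries 3 of the 14 fell, beside 3.35% of all genes. In WT mice lithium called 0 of 14, beside 5.71% of all genes. Averaged over genotypes it called 2 of 14, both lower, beside 16.2% of all genes. The genotype by lithium interaction called 0 of 14 (smallest adjusted p = 0.42 by limma) and 0% of all genes. A difference between the genotypes in this fall was therefore not shown. In the HT comparison 4 of 5 astrocyte, 4 of 4 oligodendrocyte and 5 of 5 microglial markers were lower (median -0.08 for each list). Of these only P2ry12, a microglial receptor, was called. Of 4 endothelial markers 3 were called lower and 1 higher. Excitatory neuron markers were mixed, with 3 higher and 4 lower (median -0.03, none called). The part of these cell types in the list's change was not tested. Of 12 other synaptotagmin genes, lithium raised Syt11 in WT mice (0.09 ± 0.02, adjusted p = 0.017) and lowered Syt5 in HT mice (-0.12 ± 0.04, adjusted p = 0.038), that is 1 of 12 in each, beside 5.71% and 8.77% of all genes. The Syt5 call was lost without the 17 libraries and with only the groups compared in the fit. No other synaptotagmin was called in either genotype.

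Transcription factors of interneurons and genes of the neuregulin pathway gave no call for lithium, for fluoxetine or for the genotype averaged over treatments. Of all genes, lithium called 5.71% in WT, 8.77% in HT and 16.2% averaged, fluoxetine 0.146%, 0.045% and 0.928%, and the averaged genotype 0.152%. With the tissue scores as covariates, 2 transcription factor genes were called lower with lithium in HT mice and averaged over genotypes. Of 15 tested transcription factor genes, 5 were higher and 10 lower with lithium averaged over genotypes (median -0.08), and Mef2c had the smallest p (-0.13 ± 0.05, adjusted p = 0.089). Of 10 neuregulin and ErbB genes 8 were higher (median 0.03), and Nrg1, a ligand of Erbb4, had the smallest p (0.09 ± 0.04, adjusted p = 0.10). Among 20 markers of other interneuron classes, Npy, a neuropeptide of somatostatin and neurogliaform cells, was lower in HT than in WT mice averaged over treatments, in 26 of 29 HT libraries (-0.18 ± 0.03, adjusted p = 0.0011). It was also lower under lithium taken alone (-0.26 ± 0.05, adjusted p = 0.025, 10 of 10 below), where 0.0337% of all genes were called. Crh, a peptide of some interneurons, was lower with lithium in HT mice (-0.30 ± 0.10, adjusted p = 0.042), and this call was lost without the 17 libraries. Fluoxetine called none of the genes in these lists in WT mice, HT mice or both together.

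Between libraries of the same group, the members followed the olfactory marker score in opposite directions. Correlations were taken over 56 libraries after each group's mean was subtracted, with 100000 two-sided permutations within groups and adjustment over 16 relations. Gad1 rose with the score most closely (r = 0.92, rho = 0.92, both with p = 1e-05, the smallest these permutations can give, adjusted p = 5.3e-05 for each), and r was 0.92 without the 2 libraries farthest from the median score. Gad2 (r = 0.71, rho = 0.73, p = 1e-05 and adjusted p = 5.3e-05 for both, r = 0.64 without the 2 libraries) and Slc32a1 (r = 0.64, p = 6e-05, rho = 0.62, p = 5e-05, adjusted p = 0.00024 and 0.0002, r = 0.54 without the 2) also rose with it. Lhx6 fell with the score (r = -0.73, rho = -0.66, p = 1e-05 and adjusted p = 5.3e-05 for both, r = -0.66 without the 2). Pvalb (r = -0.53, p = 0.00041, rho = -0.50, p = 0.0009, adjusted p = 0.0011 and 0.0024, r = -0.46 without the 2) and Syt2 (r = -0.49, p = 0.00037, rho = -0.47, p = 0.00059, adjusted p = 0.0011 and 0.0019, r = -0.40 without the 2) fell less closely. Sox6 (r = -0.22, permutation p = 0.20, adjusted p = 0.33) and Erbb4 (r = 0.32, permutation p = 0.055, adjusted p = 0.13) did not pass. In the 5 libraries with the highest olfactory scores Gad1 was 10569.6 to 14206 and Lhx6 429.7 to 550.4, and in the 5 with the lowest Gad1 was 7019 to 8163 and Lhx6 567 to 649.9.

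Within the 39 libraries whose scores were both at most 1, chosen after the data were seen, the relation was still past the test for Gad1 (r = 0.85, adjusted p = 8e-05), Gad2 (r = 0.65, adjusted p = 0.0004) and Lhx6 (r = -0.49, adjusted p = 0.024). It was not for Slc32a1 (r = 0.40, adjusted p = 0.074), Pvalb (r = -0.18, adjusted p = 0.55) or Syt2 (r = -0.28, adjusted p = 0.20). The striatal score fell into 2 clusters, 11 libraries at 0.71 or above and 45 at 0.30 or below, so no pooled correlation is given. Within the 45, no member passed by r, and Slc32a1 had the largest value (r = 0.32, permutation p = 0.12, adjusted p = 0.21), while its rho passed (rho = 0.43, permutation p = 0.015, adjusted p = 0.034, and r = 0.45 over 43 libraries without the 2 farthest). The median of Gad2 was 5612 in the 11 libraries and 4644 in the 45, and that of Slc32a1 2663 and 2326. For Syt2 the medians were 972 and 874, and for Pvalb 528 and 538.

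**Figure D4:**
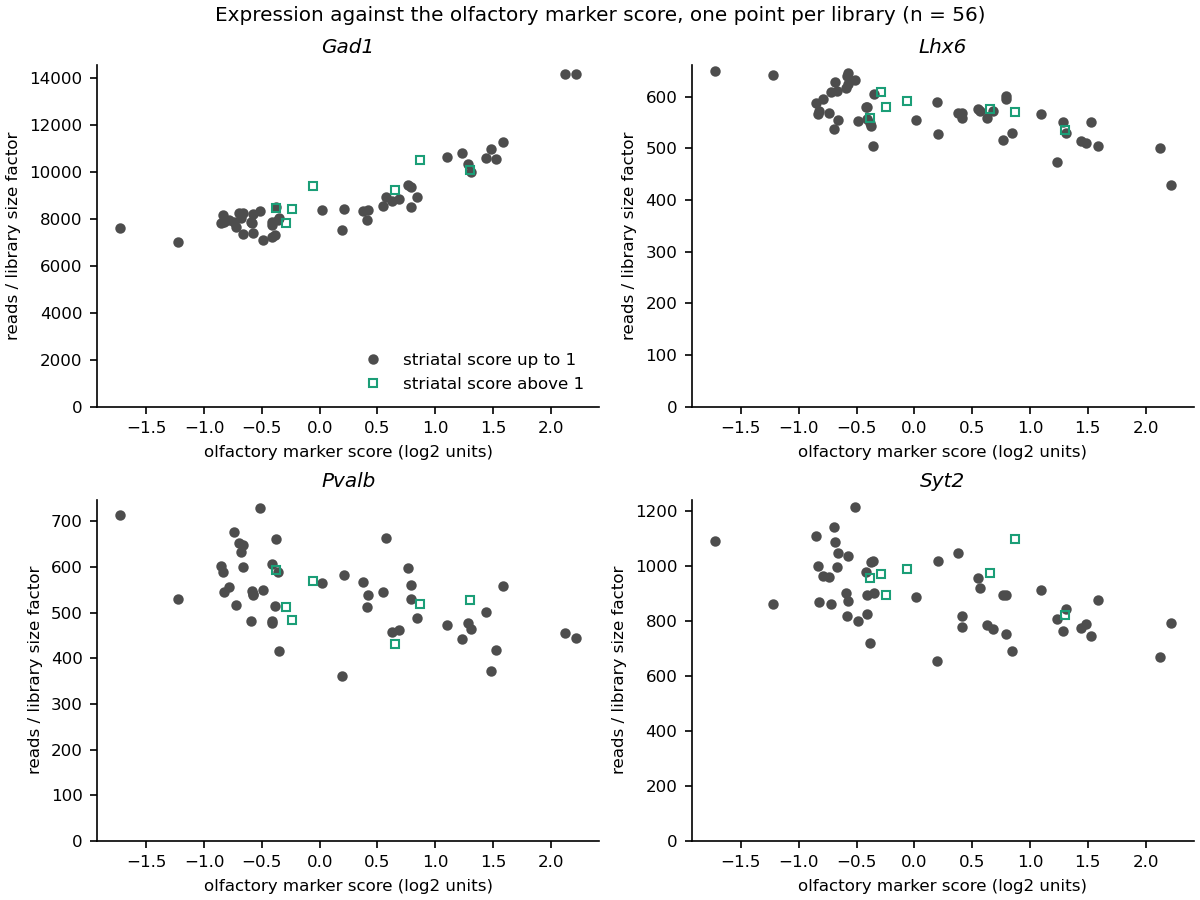
Values of Gad1, Lhx6, Pvalb and Syt2 (y axes, size-factor-scaled reads, from 0) against the olfactory marker score (x axis, log2 units), 1 point for each of 56 libraries. Open squares are the 7 libraries with a striatal score above 1. Gad1 climbs to 14206 at the highest scores, where Lhx6 is at its lowest, 429.7.

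The members also varied with each other within groups. Of 28 pairs, 15 passed a permutation test adjusted over the 28 pairs, 7 with a positive and 8 with a negative r. Gad1 and Gad2 rose and fell together (r = 0.81, rho = 0.84, both p = 1e-05, adjusted p = 7e-05 and 9.3e-05, and r = 0.76 without the 2 libraries farthest from the median of Gad1). Pvalb and Syt2 did as well (r = 0.64, rho = 0.65, both p = 1e-05, adjusted p = 7e-05 and 9.3e-05, and r = 0.60 without the 2 farthest). These were the 2 pairs past the test among the 39 libraries with low scores, with r = 0.81 (adjusted p = 0.00028) for Gad1 and Gad2 and r = 0.67 (adjusted p = 0.00056) for Pvalb and Syt2. The other 13 pairs did not pass at that smaller number, and their r moved in different ways. It stayed as large for Gad2 with Erbb4 (0.40, adjusted p = 0.026 over 56 libraries, and 0.51, adjusted p = 0.10 over 39) and for Slc32a1 with Sox6 (-0.42, adjusted p = 0.016, and -0.45, adjusted p = 0.27). It was smaller for Gad1 with Lhx6, at -0.75 (adjusted p = 7e-05) over 56 libraries and -0.40 (adjusted p = 0.20) over 39. For Gad1 with Slc32a1 it was 0.71 (adjusted p = 7e-05) and 0.34 (adjusted p = 0.27), and for Gad2 with Slc32a1 0.67 (adjusted p = 0.00011) and 0.01 (adjusted p = 0.98). Gad1 with Pvalb turned from -0.46 (adjusted p = 0.006) to 0.14 (adjusted p = 0.78).

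**Figure D5:**
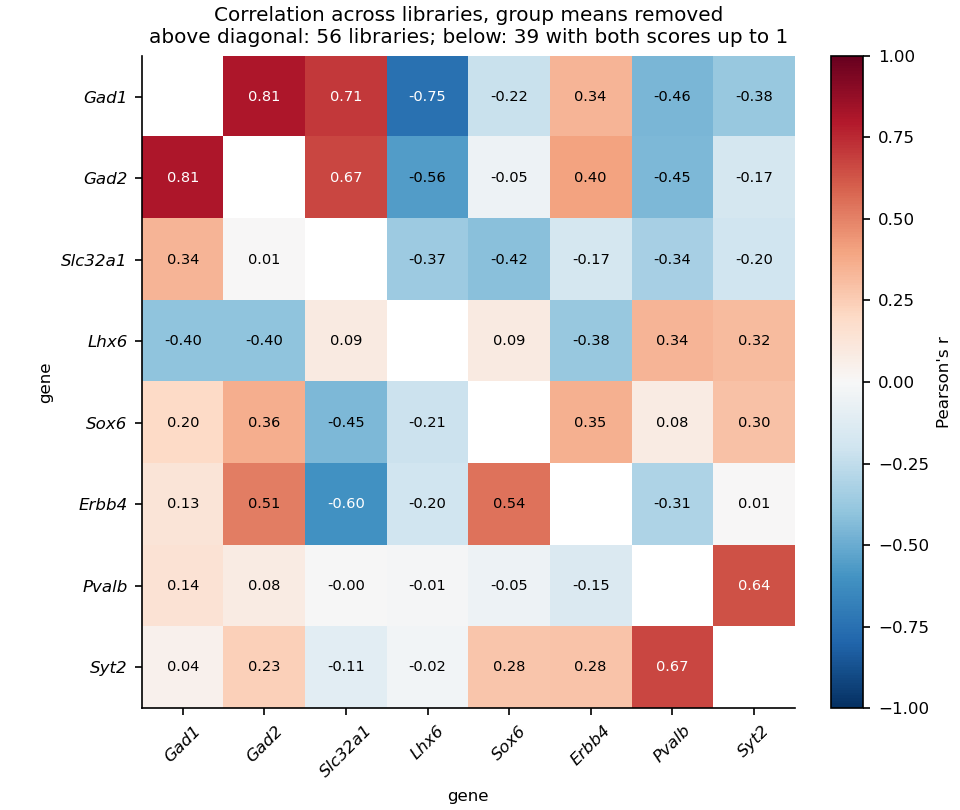
Pearson's r between each pair of the 8 genes over libraries, with group means subtracted. Cells above the diagonal use all 56 libraries and cells below it the 39 with both tissue scores at most 1. The pairs Gad1 with Gad2 (0.81 and 0.81) and Pvalb with Syt2 (0.64 and 0.67) look alike on both sides, while most negative values for Gad1 and Lhx6 shrink below it.

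The genes whose values most resembled each member's over the 56 libraries, among 12820 genes with a mean value of at least 50, were taken from the same correlation as a description. For Gad1 they were Tshz1, which is itself among the olfactory markers, Isoc1 and Synpr, each with r = 0.96. For Gad2 they were Dlx6, a homeobox gene of forebrain GABA neurons (0.89), Sox1ot (0.89) and Chn2 (0.89), and for Slc32a1 Grm4 (0.84), Shb (0.82) and Ckb (0.81). Lhx6 was most like Ppp2r2c (0.85), Pde2a (0.85) and Lzts3 (0.83), and close neighbours of Sox6 were Prex2 (0.69) and Aldh6a1 (0.66). Erbb4 was most like Ddx6 (0.87), Ptpn4 (0.86) and Fzd3 (0.84). Pvalb was nearest to Hapln4, a link protein of the perineuronal nets that wrap parvalbumin cells (0.84), then to Ly6e (0.81) and Tspan7 (0.80). Syt2 was nearest to Nefm, a neurofilament subunit (0.81), Vamp1, a vesicle fusion protein (0.77), and Atp2b2, a plasma membrane calcium pump (0.76). The libraries share their depth and dissection, and the Gad1 and Lhx6 neighbours themselves followed the olfactory score, with r from 0.92 to 0.97 and from -0.86 to -0.72. The Gad2 (0.68 to 0.75) and Slc32a1 neighbours (0.45 to 0.85) also rose with the score. Those of Pvalb (-0.67 to -0.56) and Syt2 (-0.64 to -0.60) fell with it. For the Erbb4 neighbours r with the score was 0.21 to 0.46, for Prex2 -0.26 and for Aldh6a1 0.06.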

How the data were processed

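RNA of 56 mice was made into libraries with a strand-specific TruSeq mRNA kit, according to the labels' protocols, and each title gave the library's genotype, treatment and sex, 12 groups in all. Salmon 0.11.2, R 3.6.0, DESeq2 1.19.11 and GRCm38 are named per the submitters' processing notes, without their roles, and any filter is not given in the sources used here. Each deposited value was a signal, the read count of a gene that the authors had divided by a single size factor per library (0.818 to 1.23): 100% of values gave whole reads at a tolerance of 0.01, except that the test could not be applied to 3 libraries with a factor close to 1.

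In R 4.3.3, limma 3.58.1 (trend and robust settings) was fitted to log2(value + 1) with 12 group means over all 56 libraries, and effects were averaged over the sexes. Fold changes on this scale understate those of low genes. Adjusted p-values are Benjamini-Hochberg over the 17778 genes tested. The plan allowed for raw counts or normalized values, and the test for the latter was used. Of the methods, only the limma fit was tried on simulated data, for lithium minus vehicle in WT mice. Alternatives were TMM rescaling, voom, no filter, pseudocounts of 0.5 and 5, only the groups compared, a replicate block, each library left out, both tissue scores as covariates, 17 libraries left out, and edgeR 4.0.16 and DESeq2 1.42.0 on the recovered reads. Correlations used numpy 2.4.6 and pandas 2.3.3. Coordinates are those of GENCODE vM21 on GRCm38.

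The members, gene lists and tests were chosen with earlier results of these data known. The text names the 8 members, up to 4 called genes of each list by smallest p (or the smallest p where none was called), the 3 genes most like each member (predicted genes left out), and Scn2a, except that a few of these genes are not reported here. The endothelial markers, Tbr1 and P2ry12, and the pairs named among the 28, were chosen after their values were seen. Nothing in the labels says that libraries of a group came from separate litters, so p-values rest on variation between these libraries and not between litters.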

Additional observations from a re-analysis of the deposited data

Results flagged for a closer look

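In 9 of 96 combinations of a gene and a group, 1 library lay far from the other libraries of its group, where chance gives about 1 in 20. The combinations are not independent, since members varied together, and whether 9 is more than chance gives was not tested. WT vehicle female 3 was high for Gad1 (14206, others 7877 to 8440), Gad2 (6060.1, others 4535 to 4887) and Slc32a1 (3532, others 2273 to 2613), and its olfactory score was 2.22. HT fluoxetine male 5 was high for Gad2 (5952, others 4219 to 4654), with a striatal score of 2.05. HT lithium female 3 was low for Syt2 (669, others 899.5 to 958), with an olfactory score of 2.12. Sox6 was high in HT lithium female 4 (862, others 645 to 671). Erbb4 was low in HT fluoxetine female 3 (2092, others 2851 to 2921) and in WT lithium male 3 (2183, others 2594 to 2731). Pvalb was low in HT lithium male 3 (416, others 548.5 to 597). The last 4 libraries had a striatal score of -0.26 to 0.26 and an olfactory score of -1.22 to -0.35. The part of the scores in these values was not tested.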

How the results depend on the processing

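The Syt2 call in WT lithium mice was kept in 10 of 11 alternatives and whenever 1 library was left out. With the 17 libraries with a high tissue score left out, 0 members were called for lithium in WT mice. The tissue scores as covariates gave 1 member called for lithium in HT mice (Gad1, 0.14) and 2 averaged over genotypes (Gad1, 0.14, and Syt2), and the cause was not tested. Same-numbered libraries of different groups did not deviate together on average. Their mean correlation was -0.002, against 0.00052 for libraries with other numbers. Single same-numbered pairs ran from -0.24 to 0.43, and 24 of 292 were over 0.1. A mean cannot show whether some of the libraries were paired, and this was not tested. With the replicate block Syt2 stayed called in WT (0.32, adjusted p = 0.014) and averaged over genotypes (0.20, adjusted p = 0.0091), and no member's call changed.

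These changes of sign were all in values that did not pass in the main analysis. With the scores as covariates they were Gad2 (-0.016), Slc32a1 (-0.016) for genotype, Gad2 for fluoxetine (0.0061) and lithium (0.0015), all averaged, and in WT Syt2 for fluoxetine (0.017) and Gad1 for lithium (0.13). Without the 17 libraries they were Gad2 (-0.039) and Slc32a1 (-0.065) for genotype, Erbb4 (-0.0049) and Pvalb (0.039) for fluoxetine, Sox6 for lithium (0.015), and in WT Syt2 for fluoxetine (0.0078) and Gad1 for lithium (0.019). Leaving out 1 library gave ranges across 0 for the genotype in Gad1 (-0.038 to 0.012), Gad2 (-0.0060 to 0.024), Slc32a1 (-0.0051 to 0.027) and Erbb4 (-0.0017 to 0.027), for fluoxetine in Gad2 (-0.027 to 0.018), and for Syt2 with fluoxetine in WT (-0.054 to 0.040), Syt2 with genotype under vehicle (-0.082 to 0.015) and Gad1 with lithium in WT (-0.037 to 0.074).

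In the 39 libraries with low scores the olfactory relation was weaker for Slc32a1 (0.40), Pvalb (-0.18) and Syt2 (-0.28) and changed sign for Sox6 (0.098), and the pair Gad1 with Pvalb changed to 0.14. Pairs past the test numbered 7 without the 2 farthest libraries and 2 in the 39. Over 11 alternatives the fast-spiking genes called higher with lithium numbered 5 to 7 in WT, 2 to 8 in HT and 7 to 9 averaged, and calcium-binding genes called lower 3 to 7 in HT. Depth was ample for these genes, whose lowest value was 360.3.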
